A study of Mus musculus with 9 samples.

Results

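The 10 genes described here are the members of the BCL2 family listed for this work: the pro-survival genes Bcl2l1, Mcl1 and Bcl2a1b, the effector genes Bax and Bak1, and the BH3-only genes Bad, Bid, Bcl2l11, Bbc3 and Pmaip1. They were found by their GENCODE symbol among 51912 genes in the count table, and all 10 had enough counts to be tested in both comparisons. Bulk RNA-seq had been performed on pre-cDCs, the committed progenitors of conventional dendritic cells, sorted from BM and spleen of mixed BM chimeras. The lethally irradiated recipients were BL/6 mice carrying both CD45.1 and CD45.2, and they received equal parts of WT BL/6 CD45.1 BM and DNGR-1 KO BM (Clec9a Cre/Cre, CD45.2), so that cells of both genotypes matured in the same hosts. No other treatment was given. DNGR-1, encoded by Clec9a, is a receptor for dead cells. BM gave 3 samples of each genotype, and spleen gave 1 WT sample and 2 DNGR-1 KO samples, with cells of 2 mice in each. Neither the time after transplantation nor the age of the mice was used here.

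Several facts limit these groups. Genotype goes with the CD45 allele and its flanking part of chromosome 1 in every sample, and the KO allele is a Cre knock-in, so these cannot be told apart from the loss of DNGR-1. For the WT cells, the labels disagree on whether the CD45 allele is CD45.1 or CD45.2. The mouse total that the study gives means that WT and DNGR-1 KO samples of BM share mice, but which samples do is not given. By the same total, spleen samples share mice with BM samples, and the test between tissues takes all samples as independent. The p-values therefore measure the spread between these samples only. Library totals ran from 17103806 to 23722298 counts. Clec9a, the targeted gene, had 905, 1574 and 1766 counts in the WT BM samples and 2459 in the WT spleen sample. All 3 DNGR-1 KO BM samples had 1 count of it and both DNGR-1 KO spleen samples had 0, as the labels say. The WT spleen library stood apart: of 8389 genes with at least 100 counts in both other spleen libraries, 509 had 3 counts or fewer in it, against 149 of 7757 and 140 of 7691 for the DNGR-1 KO spleen libraries. Tissue differences of members that rest on that library are given with and without it.

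The spleen samples also held RNA of other cell types. Summed T cell markers (7 genes) ran from 1.08 to 10.6 CPM (a sample's counts scaled to a common library size by TMM) in BM and from 791 to 3032 CPM in spleen. Of the 7, 6 were called higher in spleen, meaning an adjusted p under 0.05 in the tissue comparison described below. Cd3d, Cd3e and Cd3g were among them, as was Cd8a (mean of 370 CPM in spleen), while Cd4 was not. NK cell markers (8 genes) ran from 46.7 to 108 CPM in BM and from 986 to 2821 CPM in spleen, with all 6 of the tested genes higher. Erythroid markers (5 genes) ran from 82.3 to 537 CPM in BM and from 5125 to 30870 CPM in spleen, mostly the globin genes Hba-a1 and Hbb-bs, while Klf1 was called lower. Neutrophil markers (6 genes) ran the other way, from 806 to 2562 CPM in BM and from 0 to 0.892 CPM in spleen. Most of the BM sum came from Mpo (mean of 1302 CPM), while Ly6g had a mean of 0.344 CPM there and was not tested. B cell markers (6 genes) were at 34.8 to 58.6 CPM over all samples, mostly Cd79b (means of 43.6 CPM in BM and 31.7 CPM in spleen); Ms4a1 had a mean of 0.00746 CPM in BM and 7.13 CPM in spleen, and Pax5 and Ebf1 were at or near 0. Plasmacytoid DC markers (5 genes) ran from 567 to 857 CPM in BM and from 431 to 952 CPM in spleen. Monocyte and macrophage markers (6 genes) ran from 1979 to 3281 CPM in BM and from 2243 to 4068 CPM in spleen. Of the 5 tested, 1 was called higher in spleen, the macrophage gene Adgre1 (difference 4.29, adjusted p = 0.00138). It had means of 4.53 CPM in BM and 87.1 CPM in spleen. All 12 pre-cDC and DC genes had more than 3 counts in every sample, and they summed to between 4166 and 11188 CPM in BM and to between 9334 and 31861 CPM in spleen. Most of the spleen sum came from the MHC class II genes Cd74 and H2-Aa (means of 11300 and 3934 CPM), which B cells and macrophages also express. Of the 12 genes, 2 were called higher in spleen, Cd74 (difference 2.14, adjusted p = 0.0333) and Irf4 (2.74, adjusted p = 0.00446). Only 1, Irf8, was called lower in spleen (difference -1.35, adjusted p = 0.0202). Flt3 was not called (0.22), at means of 428 CPM in BM and 498 CPM in spleen. Many of the members described below are expressed in T, NK, erythroid and neutrophil cells, and the part of these cells in the tissue differences was not tested. The part of macrophages was not tested either.

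**Figure D1:**
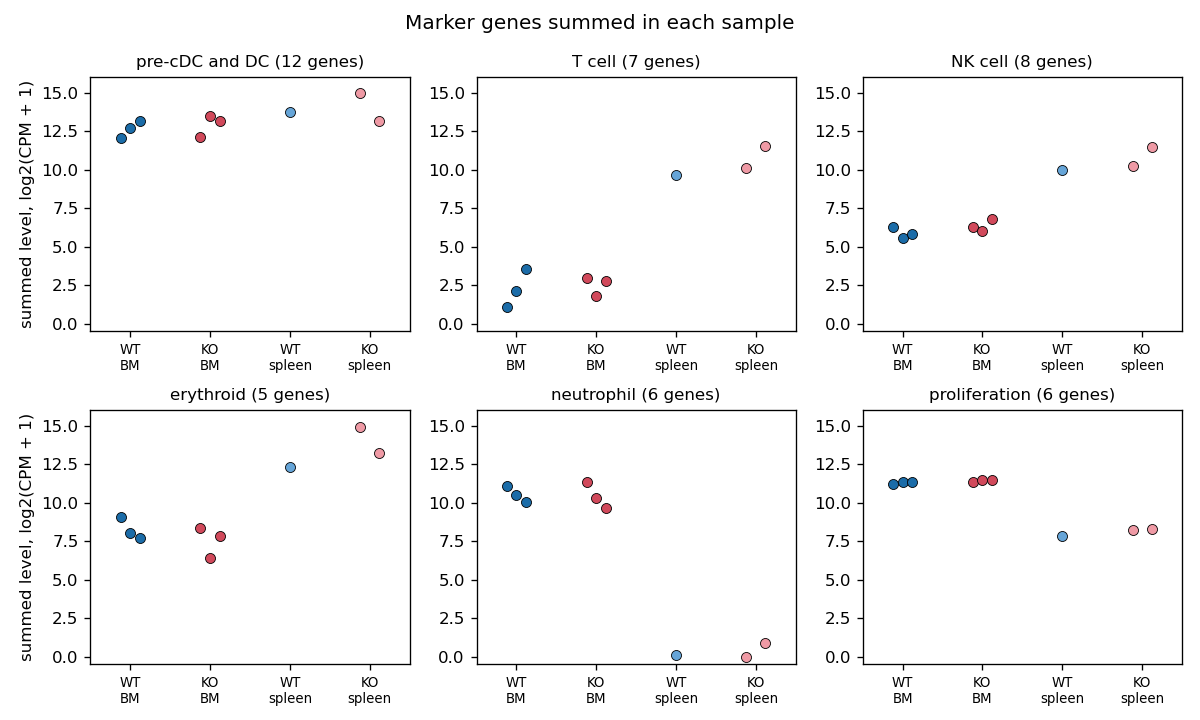
Summed level of 6 marker lists, as log2(CPM + 1) on the vertical axis, in each sample of the 4 groups (1 point per sample). T cell, NK cell and erythroid sums of the 3 spleen samples lie above all 6 BM samples, and neutrophil and proliferation sums lie below them.

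BCL2 family proteins decide whether the outer mitochondrial membrane is opened, the step that commits a cell to intrinsic apoptosis. BAX and BAK1 form the pores. Pro-survival members hold BAX, BAK1 and the BH3-only proteins in check by binding the short BH3 helix of these partners in a groove, and BH3-only proteins are induced or activated by stress. Dendritic cells and their progenitors are short-lived, and the balance of these proteins is known to set how long they persist. MCL1 has a short half-life, and BCL2A1 is known as a target of NF-kB.

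The stretch shown here is the core of the BH3 helix, which was found in members of each class. Each line gives 30 coding bases, 5′ to 3′ on the coding strand, taken from GENCODE M21 transcripts on GRCm38, with the codon of the conserved leucine and the codons of the small residue and the aspartate in capitals.
Bid: agacatCTCgcccaaataGGCGATgagatg
Bcl2l11: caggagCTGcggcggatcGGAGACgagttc
Bad: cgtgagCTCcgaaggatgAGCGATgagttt
Bbc3: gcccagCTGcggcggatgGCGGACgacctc
Bax: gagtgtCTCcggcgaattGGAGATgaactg
Bak1: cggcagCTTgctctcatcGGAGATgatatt
Bcl2l1: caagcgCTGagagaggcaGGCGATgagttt
Mcl1: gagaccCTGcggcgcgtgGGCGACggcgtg

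These stretches lie on GRCm38 at chr6:120897292-120897321 for Bid (minus strand), chr2:128147144-128147173 for Bcl2l11 (plus), chr19:6950786-6950815 for Bad (plus), chr7:16313767-16313796 for Bbc3 (plus), chr7:45466000-45466029 for Bax (minus), chr17:27022534-27022563 for Bak1 (minus), chr2:152829700-152829729 for Bcl2l1 (minus) and chr3:95659430-95659459 for Mcl1 (plus). Each lies inside 1 coding exon. They were found by translating each gene's longest coding sequence and searching it for leucine, any pair of residues, one of isoleucine, methionine, alanine or valine, then glycine, alanine or serine, then aspartate. The pattern matched once in each of these 8 genes and not at all in Bcl2a1a, Bcl2a1b or Bcl2a1d; Pmaip1 was not searched. Of 21519 coding genes searched in the same way, 9.02% held it, so a match by itself describes letters and no function. Between the 8 stretches the leucine codon was CTG, CTC or CTT and the small residue was encoded by GGN, AGC or GCG.

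In spleen pre-cDCs, 3 of the 10 members were called higher than in BM pre-cDCs, the pro-survival genes Mcl1 and Bcl2a1b and the BH3-only gene Pmaip1, and 1 was called lower, the BH3-only gene Bid (edgeR's quasi-likelihood test over 9 samples with genotype as a covariate, Benjamini-Hochberg adjusted p under 0.05). Over the 13468 genes tested, 7.28% were called higher in spleen and 12.3% lower. The samples of the 2 tissues did not overlap for 6 members, 3 above and 3 below in spleen; over all genes, 9.15% lay above and 17.4% below. The median difference of the members was 0.66 on the log2 scale, against -0.18 for all genes tested. In BM, none of the 10 members was called between DNGR-1 KO and WT pre-cDCs in the same kind of test over 6 samples, where 0.0307% of 13016 genes were called; 1 member, Pmaip1, had an unadjusted p under 0.05, as did 498 of the 13016 genes. DESeq2 and limma called none of the members there either. The 4 genes called there were Clec9a, Clec7a, Csrp1 and Ppfia4, which are not members.

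**Figure D2:**
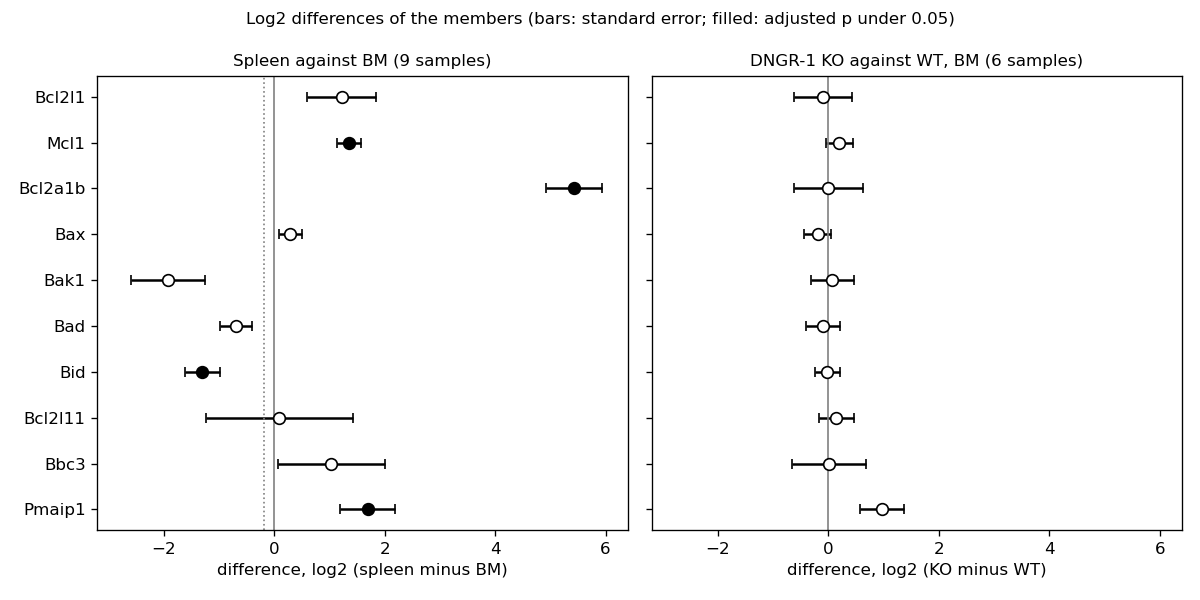
Difference of each member on the log2 scale with its standard error, spleen minus BM on the left and DNGR-1 KO minus WT within BM on the right, with filled points for an adjusted p under 0.05 and a dotted line at the median of all genes tested. Bcl2a1b lies farthest from 0 on the left at 5.42, and all points on the right but that of Pmaip1 lie within 0.2 of 0.

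Bcl2a1b (ENSMUSG00000089929, chr9:89199209-89207827, plus strand) encodes A1, a pro-survival protein of blood cells. In BM its level was 1.98, 3.07 and 0.916 CPM in WT and 1.66, 1.81 and 2.51 CPM in DNGR-1 KO samples. In spleen it was 96.4 CPM in the WT sample and 126 and 32.7 CPM in the DNGR-1 KO samples. Every spleen sample lay far above every BM sample, and the spleen samples differed among themselves by more than the BM samples did. The difference was 5.42 on the log2 scale (standard error 0.50, adjusted p = 2.03e-04 by edgeR), the largest among the members, and it stayed past the threshold in each of 20 alternative settings, without the WT spleen library too. Within spleen, the sample with the lowest Bcl2a1b level, DNGR-1 KO sample 2, had the highest sums of T cell and NK cell markers (3032 and 2821 CPM) and the lowest sum of the 12 pre-cDC and DC genes (9334 CPM), and the sample with the highest level, DNGR-1 KO sample 1, had the highest sum of pre-cDC and DC genes (31861 CPM); the part of these cells in the difference was not tested. In bulk samples, more cells of a type and more RNA per cell cannot be told apart.

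Bcl2a1b has near-identical copies on chromosome 9, so the split of reads between them is uncertain. The copies are shown over their first 60 coding bases, 5′ to 3′ on the coding strand, where 6 of their 12 differing positions lie; capitals mark those positions.
Bcl2a1b: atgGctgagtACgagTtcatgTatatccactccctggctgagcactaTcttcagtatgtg
Bcl2a1a: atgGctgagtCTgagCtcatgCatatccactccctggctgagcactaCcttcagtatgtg
Bcl2a1d: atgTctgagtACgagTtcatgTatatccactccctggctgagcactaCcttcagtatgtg

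They lie on GRCm38 at chr9:89199360-89199419 (plus strand), chr9:88957051-88957110 (plus) and chr9:88731660-88731719 (minus). Over 516 coding bases, Bcl2a1b matched Bcl2a1a at 97.9% and Bcl2a1d at 98.8% of bases, and the longest run it shared without a difference was 217 bases with each. The counts of Bcl2a1b were not whole in 9 of 9 samples, meaning that shared reads had been divided by estimate. The other copies moved with it. Bcl2a1a had between 0 and 16 counts in the BM samples, and 677, 665 and 437 counts in the WT spleen sample and DNGR-1 KO spleen samples 1 and 2 (log2 difference 7.04, adjusted p = 0.00260). Bcl2a1d had 32 to 73 counts in BM and 2330, 2810 and 1015 counts in spleen in the same order (log2 difference 5.62, adjusted p = 1.16e-04). Summed over the copies, which removes the doubt about the split between them, the level was 3.15 to 6.07 CPM in BM. In spleen it was 276, 321 and 94.3 CPM. With the sum in place of Bcl2a1b the difference was 5.67 (adjusted p = 5.46e-05 by edgeR). Gm29094, a gene on the same strand, overlaps Bcl2a1b over 8449 bases and had between 0 and 65 counts. It was not part of the sum, so reads shared with it remain in doubt. The share of the sum given to Bcl2a1b ran from 29.0% to 59.6% in BM and from 34.6% to 39.2% in spleen.

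**Figure D3:**
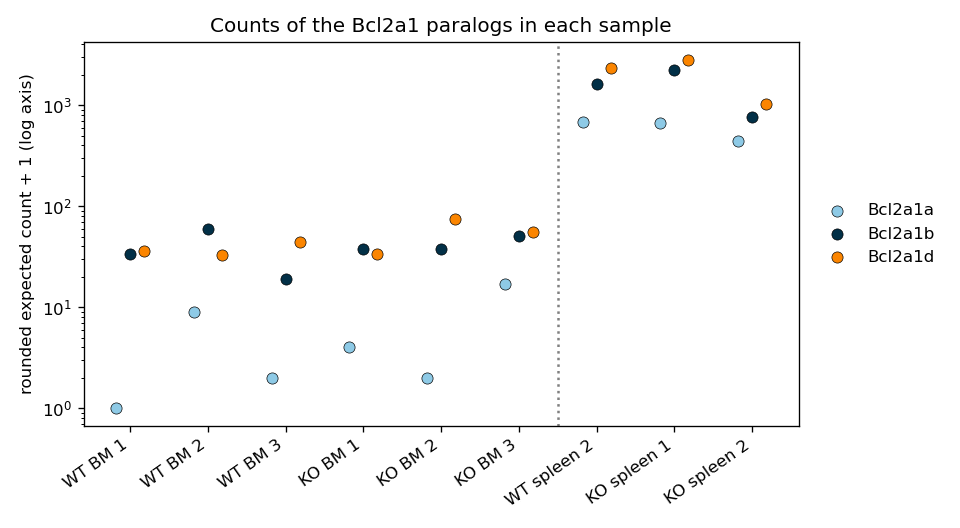
Rounded expected count plus 1 of Bcl2a1a, Bcl2a1b and Bcl2a1d on a log axis in each of the 9 samples. All copies have at least 437 counts in each spleen sample and no more than 73 counts in any BM sample.

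Mcl1 (ENSMUSG00000038612, chr3:95658788-95663176, plus strand) encodes a pro-survival protein that many progenitors depend on. Its level was 91.9, 89.3 and 98.2 CPM in WT BM and 80.4, 136 and 104 CPM in DNGR-1 KO BM. It was 255 CPM in the WT spleen sample and 192 and 332 CPM in the DNGR-1 KO spleen samples. The 3 spleen samples all lay above the 6 BM samples, and the difference was 1.36 (standard error 0.22, adjusted p = 0.00328), with an adjusted p of 0.0219 at most when any 1 sample was left out. The genotypes overlapped in BM, with a difference of 0.19 (standard error 0.24, adjusted p = 0.898). In spleen the DNGR-1 KO samples lay on either side of the WT sample, by -0.41 and 0.38.

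Bcl2l1 (ENSMUSG00000007659, chr2:152780668-152831728, minus strand) encodes BCL-XL, the pro-survival member that holds both BAX and BAK1. The WT BM samples had 10.96, 21.8 and 17.6 CPM and the DNGR-1 KO BM samples 23.0, 19.8 and 4.52 CPM. The spleen samples had 17.4 CPM in WT and 33.2 and 76.0 CPM in DNGR-1 KO. The tissues overlapped through the WT spleen sample, whereas both DNGR-1 KO spleen samples lay above all BM samples, and the tissue difference of 1.22 did not pass the test (standard error 0.62, adjusted p = 0.206). Without the WT spleen library the tissue difference was 1.79 (adjusted p = 0.105). DNGR-1 KO BM sample 3, at 4.52 CPM, was the lowest of all 9. Mcl1 counts exceeded Bcl2l1 counts by 22.9 times in that sample and by 3.49 to 14.7 times in the others.

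Bcl2 itself (chr1:106538178-106714274, minus strand), the founding pro-survival gene and not one of the 10, lies in the part of chromosome 1 that the study scored for the CD45 background, so genotype and background cannot be told apart for it. It had 46.8, 41.8 and 61.0 CPM in the WT and 67.2, 53.4 and 62.0 CPM in the DNGR-1 KO BM samples (difference 0.29, standard error 0.24, adjusted p = 0.861). In spleen it had 48.2 CPM in WT and 77.9 and 208 CPM in DNGR-1 KO, and the tissue difference of 0.79 did not pass the test (adjusted p = 0.169). Like Bcl2l1, it was highest in DNGR-1 KO spleen sample 2.

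Bax (ENSMUSG00000003873, chr7:45461697-45466898, minus strand) was the most abundant member per length in BM. It had 169, 113 and 105 CPM in WT BM and 110, 111 and 118 CPM in DNGR-1 KO BM, and 143, 177 and 118 CPM in the WT spleen sample and DNGR-1 KO spleen samples 1 and 2. The tissues overlapped, and the difference of 0.30 did not pass the test (standard error 0.21, adjusted p = 0.389). Without WT BM sample 1, the BM samples ran from 105 to 118 CPM.

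Bak1 (ENSMUSG00000057789, chr17:27019810-27029009, minus strand), which encodes the other pore-forming protein, was far scarcer. It had 4.37, 4.73 and 5.24 CPM in WT BM and 3.90, 6.05 and 5.17 CPM in DNGR-1 KO BM. The spleen samples had 0.894 CPM in WT and 2.42 and 0.807 CPM in DNGR-1 KO, from only 15, 43 and 19 counts. All spleen samples lay below all BM samples. The difference of -1.92 missed the threshold (standard error 0.67, adjusted p = 0.0744), and DESeq2 called it on the same counts at -1.86 (adjusted p = 0.00490). It was called in 3 of 19 alternative settings. By edgeR it was -1.65 without the WT spleen library (adjusted p = 0.155) and -1.90 with the replicate block (adjusted p = 0.204). Ggnbp1 overlaps Bak1 on the other strand and had between 0 and 32 counts; with the strand setting of the counting not given, reads of such a pair cannot be told apart.

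Bid (ENSMUSG00000004446, chr6:120891930-120916853, minus strand) encodes the BH3-only protein that links death receptors to mitochondria once caspase-8 has cut it. Its level was 226, 147 and 187 CPM in WT BM and 183, 178 and 193 CPM in DNGR-1 KO BM. The WT spleen sample had 72.0 CPM and the DNGR-1 KO spleen samples 114 and 40.9 CPM. Every spleen sample lay below every BM sample, and Bid fell by 1.3 on the log2 scale (standard error 0.32, adjusted p = 0.0189). Without the WT spleen library the difference was -1.26 and the adjusted p 0.0713. The 6 proliferation markers were lower in spleen as well, all of them called, with sums of 2420 to 2869 CPM in BM and 225 to 308 CPM in spleen. Bid shares 913 bases with Bcl2l13 on the opposite strand, and Bcl2l13 was also lower in spleen (difference -1.82, adjusted p = 0.00266).

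Pmaip1 (ENSMUSG00000024521, chr18:66458533-66465565, plus strand) encodes NOXA, a BH3-only protein that binds MCL1 and A1 and is induced by p53 and by other stress signals. It had 12.6, 37.0 and 33.4 CPM in WT BM and 38.0, 66.2 and 58.5 CPM in DNGR-1 KO BM. It had 219 CPM in the WT spleen sample and 80.5 and 87.1 CPM in the DNGR-1 KO spleen samples. All spleen samples lay above all BM samples, with a difference of 1.69 (standard error 0.50, adjusted p = 0.0420). That call rested on the WT spleen library: without it the difference was 0.62 and the adjusted p 0.378. A fit with a replicate block gave a difference of 1.65 and an adjusted p of 0.0791, and leaving out WT BM sample 2 or 3 or DNGR-1 KO BM sample 1 or 3 gave an adjusted p between 0.0561 and 0.0953.

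Between genotypes in BM, the DNGR-1 KO samples all lay above the WT samples for Pmaip1, by 0.97 on the log2 scale (standard error 0.40), with an unadjusted p of 0.0355 and an adjusted p of 0.861 by edgeR, so the difference did not pass over all genes. Groups that do not overlap were found for 9.53% of the genes tested in BM, and for 1 of the 10 members. The lowest WT value, in sample 1, went with the lowest sum of pre-cDC and DC genes (4166 CPM), and the lowest DNGR-1 KO value, also in sample 1, with the lowest sum among the DNGR-1 KO samples (4469 CPM); the part of this in the difference was not tested. In spleen the order was the opposite, with both DNGR-1 KO samples below the WT sample, by -1.44 and -1.33; whether the genotype differences in BM and spleen differ was not tested.

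Bcl2l11 (ENSMUSG00000027381, chr2:128126038-128162547, plus strand) encodes BIM, the BH3-only protein that binds every pro-survival member and is needed for the death of many blood cells deprived of cytokines. In BM its level was 11.9, 13.7 and 13.8 CPM in WT and 19.8, 10.4 and 13.3 CPM in DNGR-1 KO, with overlapping genotypes (difference 0.14, standard error 0.31, adjusted p = 0.939). In spleen it had 1 count in the WT library, and 449 and 1034 counts, or 25.2 and 43.9 CPM, in the DNGR-1 KO libraries. The ratio to the WT library was 423 for DNGR-1 KO sample 1 (95% exact interval 75.6 to 16759) and 736 for sample 2 (132 to 29109), where the intervals cover counting error only. These ratios compare single libraries, and Bcl2l11 was one of the 509 genes listed above that were almost absent from the WT spleen library alone. Its tissue difference of 0.10 had a standard error of 1.33 (adjusted p = 0.974). Without the WT spleen library it was 1.25 (adjusted p = 0.0817), and both DNGR-1 KO spleen samples lay above all 6 BM samples.

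Bbc3 (ENSMUSG00000002083, chr7:16308393-16318205, plus strand) encodes PUMA, a BH3-only protein induced by p53. It was scarce throughout, with 16, 25 and 16 counts in WT BM and 24, 19 and 22 in DNGR-1 KO BM. The spleen libraries spread more widely, with 91 counts in WT and 1 and 43 counts in DNGR-1 KO. The ratio of the WT library to DNGR-1 KO sample 1 was 96.5 (95% exact interval 16.9 to 3853, counting error only). The tissue difference of 1.03 did not pass the test (standard error 0.97, adjusted p = 0.523), and it was -0.13 without the WT spleen library.

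Bad (ENSMUSG00000024959, chr19:6941861-6951899, plus strand) encodes a BH3-only protein held inactive by phosphorylation when growth factors are present. It had 70.1, 46.4 and 37.9 CPM in WT BM and 41.4, 39.3 and 63.5 CPM in DNGR-1 KO BM, and 31.5 CPM in WT spleen against 26.7 and 33.5 CPM in DNGR-1 KO spleen. The spleen samples lay below all BM samples, but the difference of -0.69 did not pass the test (standard error 0.29, adjusted p = 0.133). Bad shares 620 bases with Gpr137 on the opposite strand, which had 111 to 654 counts.

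**Figure D4:**
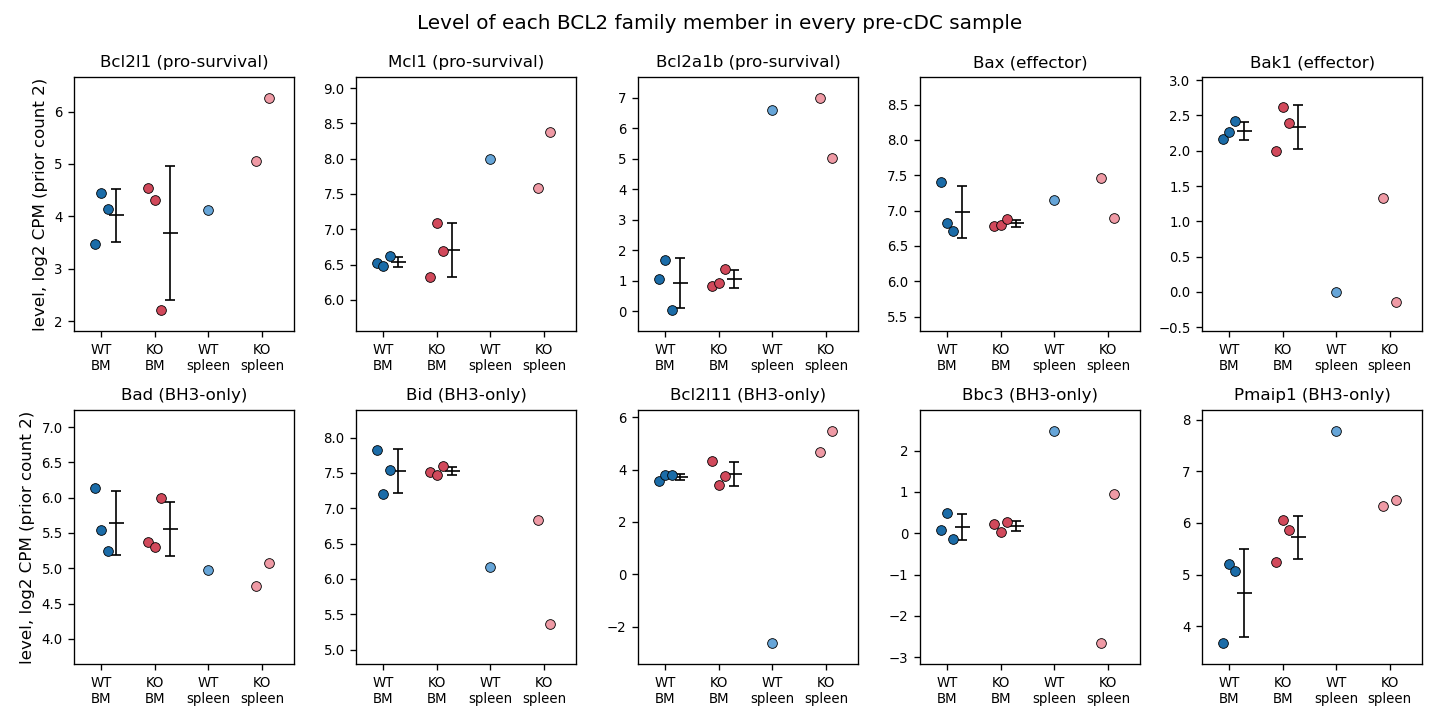
Level of each of the 10 members in log2 CPM (prior count 2) in every sample, by group, with 1 point per sample and, for groups of 3, the mean and SD beside the points. Bcl2a1b and Mcl1 of the spleen samples lie above, and Bid and Bak1 below, all BM samples, and Bcl2l11 of the WT spleen sample lies far below the other 8 samples.

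Between genotypes in spleen, WT had 1 sample and the values are described without a test. In both DNGR-1 KO samples, 3 of the 10 members differed from it at least 2-fold in the same direction, Bcl2l11 higher and Bbc3 and Pmaip1 lower. Over all genes tested, 22.8% did so. Bcl2l11 had 1 count in the WT sample, and Bbc3 had 1 count in DNGR-1 KO sample 1. The other 7 members did not: Bid and Bcl2a1b lay above the WT sample in DNGR-1 KO sample 1 (by 0.66 and 0.39) and below it in sample 2 (by -0.82 and -1.56), whereas Bcl2l1 lay above it in both (by 0.93 and 2.13).

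To compare levels between genes, CPM was divided by the summed exon length of each gene in kb. In BM the order of the median levels was Bax (71.2 CPM per kb), Bid (52.0), Mcl1 (27.8), Bad (17.1), Pmaip1 (13.7), Bcl2l1 (4.07), Bcl2a1b (2.31), Bak1 (2.06), Bcl2l11 (1.69) and Bbc3 (0.478). The ranges of neighbours in this order overlapped over the 6 samples except between Bax and Bid, Bid and Mcl1, and Bcl2l11 and Bbc3. In spleen the order was Bcl2a1b (118 CPM per kb), Bax (90.4), Mcl1 (74.7), Pmaip1 (31.9), Bid (20.3), Bad (12.3), Bcl2l1 (7.23), Bcl2l11 (3.14), Bbc3 (0.860) and Bak1 (0.372), and all neighbours overlapped over the 3 samples. Bcl2a1b thus went from place 7 to place 1 and Bid from place 2 to place 5. With the length of the longest transcript in place of the exon length, Bax was first in both tissues and Bcl2a1b second in spleen.

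By class, the pro-survival members made up 13.3% to 22.0% of the summed level per kb of the 10 members in the BM samples and 48.8% to 53.6% in the spleen samples. The BH3-only members made up 41.0% to 48.1% in BM and 18.5% to 28.6% in spleen, and the effectors 34.6% to 45.7% and 22.6% to 27.9%. Among the summed levels, which were not tested, the pro-survival sum was 30.6 to 46.4 CPM per kb in BM and 154 to 218 in spleen without overlap, while the sums of the effectors (68.5 to 109 and 75.5 to 113) and of the BH3-only members (75.4 to 103 and 62.8 to 115) overlapped between tissues. Bcl2a1b was the largest part of the pro-survival sum in the WT spleen sample (118 of 196) and DNGR-1 KO spleen sample 1 (154 of 218). In DNGR-1 KO spleen sample 2, Mcl1 was the largest part (97.2 of 154, with Bcl2a1b at 40.0). In BM, Bcl2a1b was at 1.12 to 3.75. These sums use exon length only and leave out Bcl2 and the other Bcl2a1 copies. The split of reads between those copies is uncertain. Within the effectors, Bax counts exceeded Bak1 counts by 18.4 to 38.6 times in BM and by 73.2 to 159 times in spleen. Within the BH3-only members, the count of Pmaip1 was 0.0559 to 0.372 times that of Bid in BM and 0.705 to 3.04 times in spleen.

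**Figure D5:**
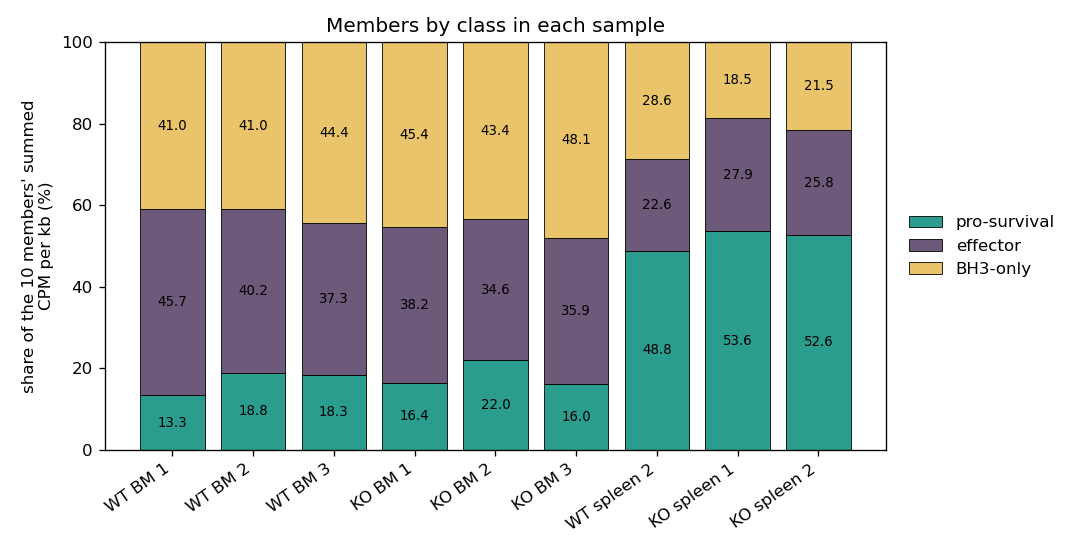
Share of the summed CPM per kb of the 10 members that falls to the pro-survival, effector and BH3-only members, in percent, in each of the 9 samples (stacked bars from 0 to 100). The pro-survival share lies between 13.3% and 22.0% in the BM samples and between 48.8% and 53.6% in the spleen samples.

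Of the 16 other genes of the BCL2 family on the list, 13 were tested between tissues, 3 were called higher and 3 lower in spleen, and the median difference was 0.24. Besides Bcl2a1a and Bcl2a1d, the higher gene was Bnip3l, which serves the removal of mitochondria, in red cell precursors above all, and which had 161 to 215 CPM in BM and 258 to 572 CPM in spleen (difference 0.88, adjusted p = 0.0307 by edgeR). Erythroid markers were also higher in spleen, and their part in this difference was not tested: Bnip3l was at 572 CPM in the WT sample and 271 and 258 CPM in DNGR-1 KO samples 1 and 2, where the erythroid sums were 5125, 30870 and 9726 CPM. The lower genes were Bcl2l13 and the low-count genes Bok and Bik. Bok, a relative of the effectors, had 2 to 29 counts in the BM samples, and Bik, a BH3-only gene, had 8 to 23. Both had 0 in all 3 spleen libraries. Their mean BM levels were 3.78 and 3.87 times the highest level that 3 counts make in a spleen library. Bok in DNGR-1 KO BM sample 2, with 2 counts, lay under that level. Bmf, a BH3-only gene, did not pass (difference 1.51, adjusted p = 0.238), with 12 to 101 counts in BM and 54, 377 and 119 counts in spleen. Bcl2l2, a pro-survival gene, had 27 to 91 counts in BM and 0, 1 and 21 in spleen, and it also missed the threshold (adjusted p = 0.105). None of the 12 tested in BM was called between genotypes, and none had an unadjusted p under 0.05.

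Downstream of the mitochondria, 1 of 22 genes of the apoptosome, caspases and their inhibitors was called higher in spleen and 3 lower, with a median difference of -0.39. The higher one was Birc3, which encodes the inhibitor cIAP2, a target of NF-kB (45.99 ± 12.4 CPM in BM, SD, n = 6 samples, and 107 ± 22.1 CPM in spleen, n = 3 samples; difference 1.14, adjusted p = 0.00834 by edgeR). The lower ones included Birc5, which encodes survivin and works in mitosis (difference -5.74, adjusted p = 2.48e-05), and the mitochondrial channel Vdac1 (-2.16, adjusted p = 1.84e-04). None was called in BM between genotypes, where 1 of the 22 had an unadjusted p under 0.05.

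Among 16 genes known as p53 targets, 14 were tested, 5 were called higher in spleen and 0 lower, with a median difference of 0.90; 6 of the 14 had an unadjusted p under 0.05, as did 4517 of all 13468 genes. The 5 were Btg2 (difference 1.196, adjusted p = 0.00546), Trp53inp1 (2.62, adjusted p = 0.0211), Fas, the death receptor whose signal BID relays (4.74, adjusted p = 0.0316), Ccng1 (0.97, adjusted p = 0.0348) and Sesn1 (1.09, adjusted p = 0.0381). This count was fragile: it was 1 with the replicate block and 1 in the DNGR-1 KO samples alone, 2 without DNGR-1 KO BM sample 1, 2 or 3 or the WT spleen sample, and 3 without WT BM sample 2 or 3. Cdkn1a and Mdm2, also p53 targets, were not called (differences -0.25 and 0.82). Of 20 regulators of the members' levels or activity, 18 were tested and 2 called higher, Rel, an NF-kB subunit (difference 1.68, adjusted p = 0.00785), and Pim2, a kinase that acts on BAD (2.72, adjusted p = 0.00367). None was called lower, 8 of the 18 had an unadjusted p under 0.05 (against 4517 of all 13468 genes), and DESeq2 called 7 of this list. Neither list held a gene called between genotypes in BM, and 1 gene of the p53 list and 0 of the regulators had an unadjusted p under 0.05 there.

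By Pearson correlation of log2 CPM over the 9 samples, the genes most like Bcl2a1b were Trbv26 (r = 0.985), 1600010M07Rik (0.983) and Cfap126 (0.981), and those most like Bid were Hist1h2af (0.987), Pgrmc1 (0.987) and Pgm3 (0.985). These values describe 9 points that fall into 2 tissues, and the highest of 13467 genes compared were taken. Trbv26 is a gene segment of the T cell receptor, and T cell markers were higher in spleen. Within spleen, the T cell sum was highest in DNGR-1 KO sample 2 (3032 CPM), where Bcl2a1b was lowest (32.7 CPM). The part of T cells in this likeness was not tested.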

How the data were processed

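The authors deposited expected counts per gene, as RSEM estimates them, and log2 values after the variance stabilizing transformation of DESeq2. The submitters' processing notes name Trimmomatic 0.36, STAR 2.5.2, RSEM 1.3.0, DESeq2 1.18.1, R 3.4.3 and GRCm38. The annotation release and strand setting are not given in the sources used here; 51633 of 51912 identifiers matched a GENCODE M21 symbol. Expected counts were rounded, because the test needs whole numbers. Genes were kept by filterByExpr with tissue as the group (genotype within BM), scaled by TMM and tested by edgeR's quasi-likelihood test (edgeR 4.0.16, R 4.3.3), spleen against BM over 9 samples with genotype as a covariate, and DNGR-1 KO against WT over 6 BM samples. The study's congenic score entered as an alternative, not as the main design. The 3 spleen samples were described between genotypes without a test, with log2 CPM at a prior count of 2. limma 3.58.1, DESeq2 1.42.0, other scalings, filters, blocks and left-out samples were the alternatives. The steps were tested on simulated counts. A count of 3 corresponds to 0.126 to 0.175 CPM.

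The members and gene lists were chosen with earlier results of these data known. Named genes were the 10 members, Clec9a, Bcl2, Bcl2a1a, Bcl2a1d, Bmf and, from each list, up to 5 genes of lowest adjusted p in each direction between tissues; for the most significant member in each direction, the 3 most correlated genes were named. Markers, Bcl2l2, Bcl2l13 as a neighbour of Bid, other overlapping genes, Cdkn1a, Mdm2 and the 4 genes called in BM were named after their values were seen. Among replicates of a group the chi-square per gene was 30.0 to 266, so no library was a repeat of another in its group. The single WT spleen library had no replicate to be compared with, and libraries of different groups were not compared. Expected counts of Bcl2a1b were not whole in 9 samples, of Bid in 6, of Bax and Bad in 5 each, and of the other 6 members in none (tolerance 0.005). Some genes of the lists are not reported here by name.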

Additional observations from a re-analysis of the deposited data

Results flagged for a closer look

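The Bax level of WT BM sample 1 stood apart from the other 5 BM samples: its gap to the nearest of them was 0.754 of the whole range, above the limit of Dixon's test for 6 values. Chance flags about 1 in 20 such groups, and 10 members were examined.

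Pmaip1 was flagged because the direction of its genotype difference was not the same in both tissues. The DNGR-1 KO samples exceeded the WT samples by 1.07 on the log2 CPM scale in BM, with no overlap, and both lay below the single WT sample in spleen, by -1.39 on average. The difference between the tissues was not tested.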

How the results depend on the processing

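Between tissues, the members' values kept their direction and their side of the threshold in 168 comparisons with an alternative, missed the threshold in 11, newly passed it in 3 and changed sign in 7; within BM they kept both in 135 and changed sign in 26, none of them past the threshold. The cause of these changes was not tested. Bcl2a1b was called in every tissue alternative, and Mcl1 in all but the DNGR-1 KO samples alone (1.29, adjusted p = 0.0617). Genes called between tissues numbered 1246 with the replicate block and 1336 in the DNGR-1 KO samples alone, against 2631, and 1848 to 3187 with 1 sample left out. Members called numbered 1 in the DNGR-1 KO samples alone, and 2 (without the WT spleen sample) to 5 with 1 sample left out. List genes called numbered 26 by DESeq2, 8 with the replicate block and 8 in the DNGR-1 KO samples alone, against 17, and 13 to 22 with 1 sample left out. Between genotypes in BM, DESeq2 called 11 genes and no filter on low counts gave 10, against 4; leaving out 1 sample gave 2 (without WT BM sample 2 or 3 or DNGR-1 KO BM sample 2 or 3) to 15 (without DNGR-1 KO BM sample 1). No member was called in any of these.

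Signs changed only for differences that had not passed the test. In BM, Bcl2a1b (0.00043) became -0.00079 with DESeq2, -0.00074 with RLE factors, -0.044 with library size alone, -0.0036 with at least 10 counts in every sample and -0.025 with the congenic score. Bid (-0.017) became 0.0060 with limma-voom, 0.016 with the deposited log2 values, 0.0012 with no filter and 0.0049 with the replicate block, and Bbc3 became -0.020 with library size alone. With 1 BM sample left out, differences ran from -0.47 to 0.35 (Bcl2l1), -0.0023 to 0.36 (Mcl1), -0.34 to 0.46 (Bcl2a1b), -0.32 to 0.055 (Bax), -0.062 to 0.23 (Bak1), -0.35 to 0.20 (Bad), -0.16 to 0.15 (Bid), -0.15 to 0.35 (Bcl2l11) and -0.12 to 0.22 (Bbc3). Between tissues, Bcl2l11 ran from -0.75 to 1.25 with 1 sample left out and was -0.033 with the deposited log2 values; Bbc3 ran from -0.13 to 1.73 and was -0.14 in the DNGR-1 KO samples alone.

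After the group means were taken off, WT and DNGR-1 KO BM samples of the same number correlated at 0.10, 0.097 and -0.078. DNGR-1 KO BM and spleen samples of the same number correlated at -0.048 and -0.023. Samples of different numbers were not compared in this way, so these values cannot decide whether the numbers pair the samples. The main fits did not pair them. Among the members, the replicate block changed only the call of Pmaip1 between tissues. Within BM, edgeR with the block gave Pmaip1 a genotype difference of 1.07, with an unadjusted p of 0.0048 and an adjusted p of 0.772. Bak1 had 15 to 43 counts in the spleen libraries, which limits its precision there. The spleen genotype difference, with 1 WT sample, was not tested. It moved with the scale for Bcl2l11 (7.69 on average, 8.61 and 6.74 at prior counts of 0.5 and 5, 1.72 on the deposited log2 values).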
